A study of Danio rerio with 10 samples.

Results

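The 6 genes described here encode the activating arm of the circadian clock in zebrafish. They are arntl1a, arntl1b and arntl2, whose newer names are bmal1a, bmal1b and bmal2, together with clocka, clockb and npas2. They were taken by name from a table of 32266 genes, with earlier results of these data known. All 6 passed the filter on low counts in every comparison. The table names genes by Ensembl ID, and the name table used here gives BMAL1 for both ENSDARG00000006791 and ENSDARG00000035732, and CLOCK for both ENSDARG00000003631 and ENSDARG00000011703. Which of each pair is the a copy and which the b copy is not given in the sources used here. The copies are therefore called BMAL1_6791, BMAL1_35732, CLOCK_3631 and CLOCK_11703, after the last digits of their IDs. The gene bmal2 is ENSDARG00000041381 and npas2 is ENSDARG00000016536.

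BMAL proteins pair with CLOCK or with its relative NPAS2, and the pair binds E-box DNA and drives transcription of the period, cryptochrome and nr1d genes. Period and cryptochrome proteins then block the pair, which closes the daily loop. Nr1d proteins repress and Ror proteins activate bmal genes, which is a second loop, and in vertebrates bmal transcripts usually peak in a part of the day opposite to that of period transcripts. Zebrafish keep extra copies of many of these genes from the genome duplication of teleost fish, and clocks run in most of their tissues, brain included.

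RNA was measured in whole brains of 6-month-old fish of the Tübingen strain, with 2 brains pooled in each library. The study states this pooling in a figure legend on m1/m1 vehicle and methylphenidate brains, and it is taken here for all libraries. The mutant line, ppp2r2c m1/m1 in the study, m/m in the genotype labels and a4 in the sample titles, carries a frameshift made by genome editing in ppp2r2c, which encodes a brain regulatory subunit of the phosphatase PP2A. WT fish with vehicle gave 2 libraries, m1/m1 fish with vehicle gave 2, m1/m1 fish with methylphenidate (MPH) at 1.08 mg/kg (Ritalin in the titles) gave 3, and m1/m1 fish with valproate at 300 mg/kg gave 3. MPH blocks dopamine and noradrenaline reuptake, and the study used it as an activator of PP2A. The study's reagent list gives MPH as a ritalinic acid hydrochloride solution. Valproate is a mood stabiliser that also inhibits histone deacetylases. Drugs were prepared in PBS and given in soaked food for 3 days. No WT library with a drug was analysed here, so each treated group differs from WT in genotype and drug at once. The hour at which brains were taken is not given in the sources used here, so drug, genotype and time of day cannot be told apart for genes that cycle daily. In whole brain, fewer cells of a type and less RNA per cell cannot be told apart either. The labels do not say how fish were assigned to replicates, so p values measure only the spread between these libraries.

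Library totals ranged from 19224942 to 25851076 counts. The targeted gene, PPP2R2C, stood at 50.3 and 54.6 CPM (counts scaled to library size) in WT, 46.3 and 46.7 CPM in m1/m1 vehicle, 48.9, 70.6 and 39.2 CPM with MPH and 70.6, 56.1 and 59.7 CPM with valproate. It was lower in both m1/m1 vehicle libraries than in WT, at a log2 fold change of −0.17 (95% interval −0.46 to 0.13, adjusted p = 0.7 in edgeR), while MPH replicate 2 and all 3 valproate libraries, also m1/m1, were above WT. Counts per gene do not read the edited allele. The study itself reported less ppp2r2c mRNA in mutant brains by RT-qPCR, and lower PP2A activity there. Neuron markers were present in every library, with a sum of 5072 to 6613 CPM over 8 genes and none at 0. Radial glia markers summed to 2486 to 4191 CPM and oligodendrocyte markers to 6052 to 13720 CPM, also with none at 0. The sums are not weighted, so strong genes carry much of them. A SNAP25 copy (ENSDARG00000020609) ran from 2785 to 3767 CPM and mbpa from 4532 to 10830 CPM. Markers of pineal and retina photoreceptors, cells with clocks of their own, summed to 133.1 CPM in WT replicate 2 and 178.5 CPM in valproate replicate 2, and to 19.7 to 29.0 CPM in the other libraries, with 0 to 2 of the 13 genes at 0. Pituitary markers summed to 62.8 CPM in MPH replicate 2 and 62.3 CPM in valproate replicate 1, and to 0.819 to 6.37 CPM elsewhere, with 0 to 4 of the 8 genes at 0. MPH replicate 3 and valproate replicate 1 stood apart from the other libraries of their groups in clock genes, as described with bmal2. CPM values by library and group means are scaled over all 10 libraries by the TMM method, and each test used the libraries of its own comparison alone.

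BMAL1 proteins are the main partners of CLOCK and NPAS2 in the vertebrate clock. BMAL1_6791 stood at 49.4 and 50.9 CPM in WT, 62.1 and 59.7 CPM in m1/m1 vehicle, 47.6, 39.1 and 90.5 CPM with MPH and 63.8, 76.8 and 81.1 CPM with valproate. The valproate libraries all lay above the vehicle libraries of both genotypes, whereas the MPH libraries spanned the whole range of the gene. Group means were 73.9 ± 8.99 (SD, n = 3) with valproate, 60.9 ± 1.69 (SD, n = 2) in m1/m1 vehicle, 59.1 ± 27.5 (SD, n = 3) with MPH and 50.2 ± 1.07 (SD, n = 2) in WT. In that order, m1/m1 vehicle and MPH did not differ beyond their spread, nor did MPH and WT. BMAL1_35732 stood at 16.2 and 18.9 CPM in WT, 19.2 and 22.7 CPM in m1/m1 vehicle, 21.2, 24.9 and 27.8 CPM with MPH and 36.1, 35.4 and 32.3 CPM with valproate. For this copy the 3 valproate libraries were above all 7 others, and the lowest of them was above the highest MPH library. Its means were 34.6 ± 2.03 (SD, n = 3) with valproate, 24.7 ± 3.31 (SD, n = 3) with MPH, 21.0 ± 2.46 (SD, n = 2) in m1/m1 vehicle and 17.5 ± 1.97 (SD, n = 2) in WT, and MPH and m1/m1 vehicle overlapped.

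The gene bmal2 (arntl2) encodes a related partner of CLOCK. It stood at 5.23 and 5.42 CPM in WT, 6.63 and 5.92 CPM in m1/m1 vehicle, 3.39, 5.52 and 14.5 CPM with MPH and 4.08, 20.6 and 14.2 CPM with valproate. The vehicle libraries of both genotypes lay close together, while each drug group held a library below all vehicle libraries and at least 1 above all of them. Means were 12.97 ± 8.34 (SD, n = 3) with valproate, 7.81 ± 5.92 (SD, n = 3) with MPH, 6.28 ± 0.506 (SD, n = 2) in m1/m1 vehicle and 5.32 ± 0.131 (SD, n = 2) in WT, and only the last pair of neighbours did not overlap. The lowest count of any member in any library was that of bmal2 in MPH replicate 1, 77 counts, with an exact Poisson 95% interval of 60.8 to 96.2. In valproate replicate 2 it had 418 counts, with an interval of 379 to 460, so counting error was small beside the differences between libraries.

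CLOCK is the partner with which BMAL proteins bind E-boxes. CLOCK_3631 stood at 19.4 and 24.4 CPM in WT, 21.3 and 21.7 CPM in m1/m1 vehicle, 20.4, 25.3 and 22.1 CPM with MPH and 30.1, 28.9 and 26.3 CPM with valproate. The 3 valproate libraries were the highest of the 10, and the other groups overlapped. Means were 28.5 ± 1.95 (SD, n = 3) with valproate, 22.6 ± 2.50 (SD, n = 3) with MPH, 21.9 ± 3.55 (SD, n = 2) in WT, with m1/m1 vehicle lowest at 21.5 ± 0.290 (SD, n = 2). CLOCK_11703 stood at 9.33 and 12.4 CPM in WT, 7.21 and 12.6 CPM in m1/m1 vehicle, 8.19, 11.6 and 15.6 CPM with MPH and 15.7, 26.1 and 30.0 CPM with valproate. Valproate was again highest, but its lowest library exceeded the highest MPH library by less than the spread within either group. Means were 23.9 ± 7.37 (SD, n = 3) with valproate, 11.8 ± 3.71 (SD, n = 3) with MPH, 10.9 ± 2.16 (SD, n = 2) in WT, with m1/m1 vehicle lowest at 9.91 ± 3.82 (SD, n = 2), and the last 3 overlapped.

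NPAS2 can take the place of CLOCK in the complex and in mammals is prominent in forebrain neurons. The gene npas2 stood at 6.92 and 11.7 CPM in WT, 9.62 and 9.29 CPM in m1/m1 vehicle, 5.77, 11.1 and 10.0 CPM with MPH and 17.7, 15.3 and 17.8 CPM with valproate. All 3 valproate libraries were above the other 7, which overlapped. Means were 16.9 ± 1.40 (SD, n = 3) with valproate, 9.46 ± 0.235 (SD, n = 2) in m1/m1 vehicle, 9.29 ± 3.36 (SD, n = 2) in WT, with MPH lowest at 8.98 ± 2.83 (SD, n = 3).

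**Figure D1:**
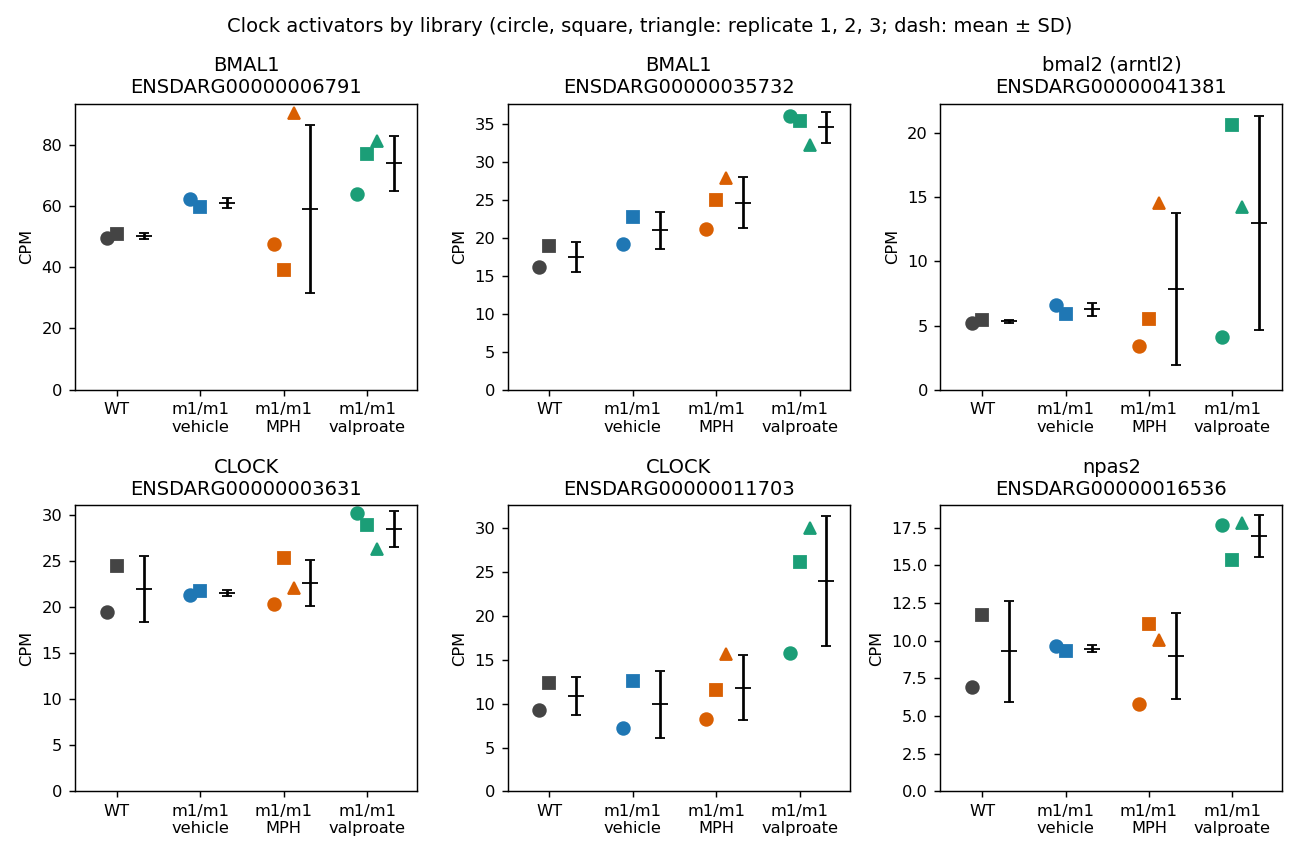
Level of each of the 6 genes in CPM (vertical axes, from 0) in the 10 libraries, by group; symbols are libraries and the dash with bars is the group mean ± SD. Valproate libraries are highest for BMAL1_35732, both CLOCK copies and npas2, and bmal2 spans 3.39 to 14.5 CPM with MPH and 4.08 to 20.6 CPM with valproate.

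The comparison of valproate with vehicle in m1/m1 brains asks whether the drug changed these genes in the mutant. All 6 were higher on average with valproate, from a log2 fold change of 0.27 for BMAL1_6791 to 1.26 for CLOCK_11703, with a median of 0.77 against 0.00398 over all genes tested. None reached an adjusted p under 0.05 by the quasi-likelihood test of edgeR; 26 of 19850 genes did (0.131%), and 4 of the 6 had an unadjusted p under 0.05, all higher, as did 9.08% of all genes in that direction. In 5 of the 6, all but bmal2, the groups did not overlap and valproate was higher, which held for 18.6% of all genes. Npas2 was 1.78-fold higher, a log2 fold change of 0.83 (standard error 0.17, 95% interval 0.44 to 1.22), with an adjusted p of 0.0872 in edgeR. BMAL1_35732 was 1.64-fold higher, a log2 fold change of 0.71 (standard error 0.14, 95% interval 0.38 to 1.04), with an adjusted p of 0.0893. CLOCK_11703 was 2.40-fold higher, with a wider 95% interval of the log2 fold change from 0.49 to 2.03 and an adjusted p of 0.14. For CLOCK_3631 the log2 fold change was 0.39 (95% interval 0.08 to 0.71, adjusted p = 0.216 in edgeR). The intervals of BMAL1_6791, −0.04 to 0.57, and of bmal2, −0.30 to 2.37, included 0.

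The number of calls depended on the tool and on 1 library. With DESeq2's Wald test 3 of the 6 passed, namely BMAL1_35732 (adjusted p = 0.00274), npas2 (adjusted p = 0.00389) and CLOCK_11703 (adjusted p = 0.008), as did 1071 of 19077 genes (5.61%). Without valproate replicate 1, edgeR called 3 members, which were BMAL1_35732 at a log2 fold change of 0.67 (adjusted p = 0.0486), CLOCK_11703 at 1.49 (adjusted p = 0.0301) and bmal2 at 1.46 (adjusted p = 0.0259), and it called 712 of 19514 genes (3.65%). Marker sums moved between the same groups. Neuron markers summed to 6076 to 6613 CPM with valproate and 5571 to 5991 CPM in m1/m1 vehicle, radial glia markers to 2486 to 3795 and 3854 to 4191 CPM, and the blood markers hbaa1 and alas2 to 64.6 to 87.9 and 295.2 to 314.8 CPM. None of these ranges overlapped, nor did those of skeletal muscle markers, 6.61 to 19.3 CPM with valproate and 4.05 to 5.36 CPM in m1/m1 vehicle. The sums of oligodendrocyte, pituitary and photoreceptor markers did overlap. The part of these markers in the values of the 6 genes was not tested.

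Against WT, valproate-treated m1/m1 brains were also higher in all 6 genes, with a median log2 fold change of 0.92 against 0.00316 over all genes tested. None passed an adjusted p of 0.05 in edgeR (23 of 20024 genes did, 0.115%), 4 had an unadjusted p under 0.05 and were higher (8.84% of all genes), and 5 were higher without overlap (18.5% of all genes). BMAL1_35732 came nearest, 1.97-fold higher, or 0.98 on the log2 scale (standard error 0.15, 95% interval 0.62 to 1.34) and an adjusted p of 0.0682. BMAL1_6791 was 1.48-fold higher (95% interval of the log2 fold change 0.23 to 0.89, adjusted p = 0.149 in edgeR). CLOCK_11703 and npas2 had log2 fold changes of 1.14 (95% interval 0.45 to 1.84, adjusted p = 0.156) and 0.87 (95% interval 0.27 to 1.46, adjusted p = 0.189). DESeq2 called BMAL1_35732 (adjusted p = 1.83e-05), CLOCK_11703 (adjusted p = 0.0125) and BMAL1_6791 (adjusted p = 0.0241), among 979 of 20758 genes (4.72%). Without a filter on low counts edgeR called BMAL1_35732 (adjusted p = 0.0262) among 228 of 26316 genes (0.866%). Marker sums moved here too, with neuron markers at 6076 to 6613 CPM with valproate and 5436 to 5869 CPM in WT. Blood markers were at 64.6 to 87.9 CPM with valproate and 117.6 to 302.2 CPM in WT. Neither pair of ranges overlapped, while those of the other marker lists did. The part of these markers in the values was not tested. This comparison and the previous one share the valproate libraries.

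Between MPH and vehicle in m1/m1 brains no member was called by edgeR or DESeq2, beside 0.216% and 2.93% of all genes. The groups overlapped in all 6 genes, and none had an unadjusted p under 0.05 in edgeR, beside 11.7% of all genes. The share of all genes without overlap was not counted for this comparison. The log2 fold changes were −0.04 for BMAL1_6791, 0.24 for BMAL1_35732, 0.32 for bmal2, 0.07 for CLOCK_3631, 0.26 for CLOCK_11703 and −0.07 for npas2, with a median of 0.15 and adjusted p between 0.715 and 0.977. The 95% intervals were −0.38 to 0.52 for CLOCK_3631, −0.25 to 0.72 for BMAL1_35732, −0.79 to 0.70 for BMAL1_6791 and −0.82 to 0.68 for npas2, all within a 2-fold change in either direction. That of CLOCK_11703, −0.57 to 1.08, reached past a 2-fold rise. For bmal2 the interval ran from −0.95 to 1.59 and the sign depended on 1 library, with a log2 fold change of −0.50 without MPH replicate 3. BMAL1_6791 moved likewise, from −0.04 to −0.50 without MPH replicate 3 and to 0.19 without MPH replicate 2. CLOCK_11703 ran from −0.10 without vehicle replicate 1 to 0.71 without vehicle replicate 2. Marker sums with MPH and in m1/m1 vehicle did not overlap for radial glia, 2923 to 3354 against 3854 to 4191 CPM. Nor did they for oligodendrocytes, 7414 to 9208 against 9932 to 12800 CPM, or skeletal muscle, 14.6 to 21.5 against 4.05 to 5.36 CPM. The sums of the other marker lists overlapped, and the part of the markers in the values was not tested.

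The drugs were also compared with each other directly. All 6 genes were lower with MPH than with valproate, with a median log2 fold change of −0.60 against 0.00188 over all genes tested. No gene of 19387 passed an adjusted p of 0.05 in edgeR (0%), 787 had an unadjusted p under 0.05, and DESeq2 called 41 genes (0.189%), none of them a member. In 3 of the 6 the unadjusted p was under 0.05 and MPH was lower, as for 1.81% of all genes, and in 4 of the 6 the groups did not overlap with MPH lower, as for 4.48% of all genes. These were CLOCK_11703 at a log2 fold change of −1.01 (standard error 0.30, 95% interval −1.70 to −0.32, unadjusted p = 0.00939 in edgeR), npas2 at −0.91 (standard error 0.26, 95% interval −1.51 to −0.31, unadjusted p = 0.00777 in edgeR), BMAL1_35732 at −0.48 (standard error 0.16, 95% interval −0.84 to −0.12, unadjusted p = 0.0153 in edgeR) and CLOCK_3631 at −0.33 (95% interval −0.69 to 0.03, unadjusted p = 0.0698 in edgeR). Each of the 6 had an adjusted p of 0.997. For bmal2, −0.72 with an interval from −2.17 to 0.73, and BMAL1_6791, −0.31 with an interval from −0.97 to 0.34, MPH and valproate overlapped. With libraries left out in turn, bmal2 ran from −1.54 without MPH replicate 3 to −0.22 without valproate replicate 2. BMAL1_6791 ran from −0.77 without MPH replicate 3 to −0.09 without MPH replicate 2.

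**Figure D2:**
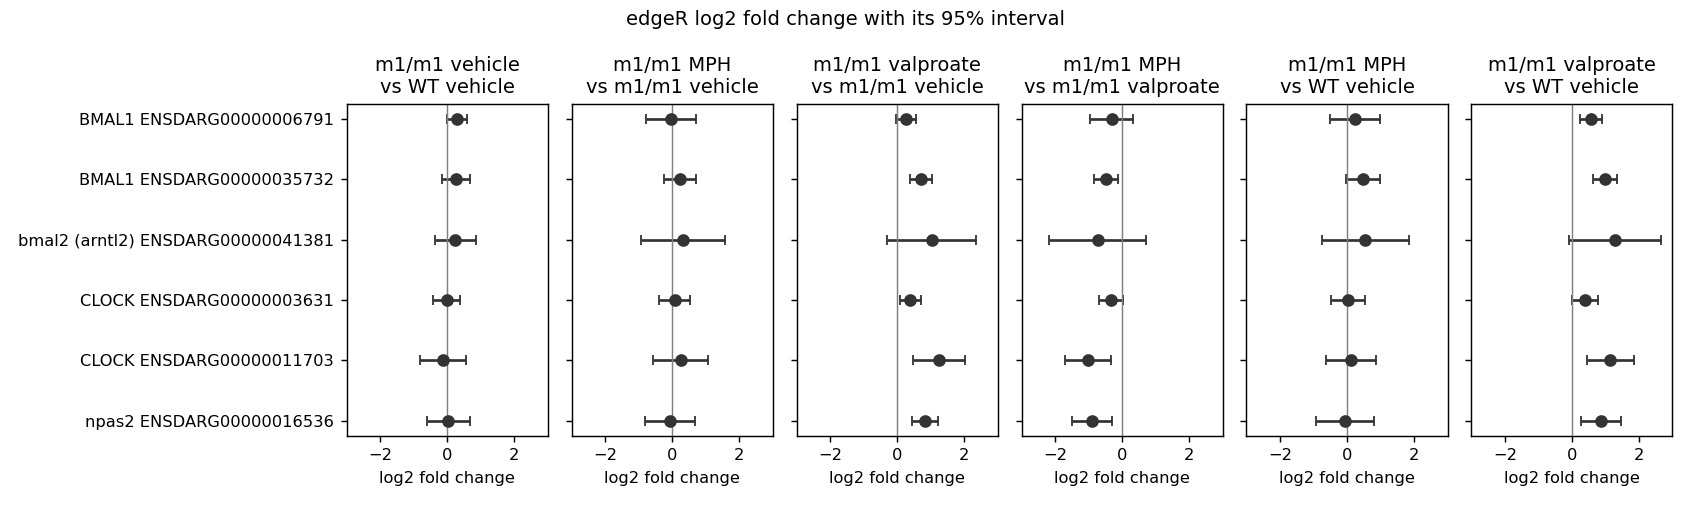
Log2 fold change of each gene from edgeR (horizontal axis) with its 95% interval, in the 6 comparisons (panels). With valproate against m1/m1 vehicle 4 intervals lie above 0, with MPH against m1/m1 vehicle all 6 include 0, and with MPH against valproate 3 lie below 0.

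Between the genotypes without drug no member was called. Log2 fold changes of m1/m1 vehicle over WT were 0.29 for BMAL1_6791, 0.26 for BMAL1_35732, 0.24 for bmal2, −0.02 for CLOCK_3631, −0.13 for CLOCK_11703 and 0.03 for npas2, with a median of 0.14 against −0.00553 over all genes tested. No member had an unadjusted p under 0.05 in edgeR, beside 10% of all genes, and DESeq2 called none. An adjusted p of 0.05 was passed by 0.193% of all genes in edgeR and 1.35% in DESeq2. The 3 bmal genes were higher in both m1/m1 libraries than in both WT libraries, a separation that 21.2% of all genes showed in that direction. The nearest to a threshold was BMAL1_6791 (standard error 0.13, 95% interval −0.003 to 0.57, unadjusted p = 0.0519, adjusted p = 0.504 in edgeR). The 95% interval of npas2 was −0.62 to 0.68 and that of CLOCK_11703 −0.82 to 0.56. The signs of these genes and of CLOCK_3631 changed with the library left out, npas2 being −0.30 without WT replicate 1, CLOCK_11703 0.21 without m1/m1 vehicle replicate 1 and CLOCK_3631 0.15 without WT replicate 2. Marker sums in m1/m1 vehicle and WT did not overlap for radial glia, 3854 to 4191 against 2779 to 3449 CPM. Nor did they for pituitary, 5.19 to 6.37 against 0.819 to 3.74 CPM, or skeletal muscle, 4.05 to 5.36 against 5.91 to 19.4 CPM. The sums of the other marker lists overlapped, and the part of the markers in the values was not tested.

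MPH-treated m1/m1 brains against WT had log2 fold changes of 0.23 for BMAL1_6791, 0.49 for BMAL1_35732, 0.55 for bmal2, 0.03 for CLOCK_3631, 0.12 for CLOCK_11703 and −0.05 for npas2. No member had an unadjusted p under 0.05 in edgeR, beside 11.6% of all genes. Adjusted p in edgeR were 0.452 to 0.972 and DESeq2 called none. An adjusted p of 0.05 was passed by 0.194% of all genes in edgeR and 2.43% in DESeq2. Only BMAL1_35732 did not overlap, with all 3 MPH libraries above both WT libraries, as in 15.4% of all genes (95% interval of the log2 fold change −0.03 to 1.00). Without MPH replicate 3 the log2 fold change of BMAL1_6791 was −0.21 and that of bmal2 −0.26.

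Within the drug groups, the 6 genes differed in how far libraries of the same label lay apart. The highest library of bmal2 was 4.28-fold above the lowest with MPH and 5.06-fold with valproate, against 1.04-fold in WT and 1.12-fold in m1/m1 vehicle. Among 17648 genes with a mean of at least 1 CPM, that range was at percentile 95.8 with MPH and 97.8 with valproate. It was at percentile 12.1 in WT and 42.6 in m1/m1 vehicle. A range over 3 libraries tends to be wider than a range over 2. The median log2 range of these genes was 0.605 with MPH and 0.414 with valproate, against 0.238 in WT and 0.198 in m1/m1 vehicle. BMAL1_6791 had a range of 2.31-fold with MPH (percentile 83.1) and 1.27-fold with valproate (percentile 41.0). BMAL1_35732 stayed within 1.31-fold with MPH and 1.12-fold with valproate, at percentiles 29.3 and 14.2, so the BMAL1 copies differed in spread. CLOCK_11703 ranged 1.90-fold and 1.91-fold, npas2 1.93-fold and 1.16-fold, and CLOCK_3631 1.24-fold and 1.14-fold, with MPH and valproate in that order. With MPH, CLOCK_11703 was at percentile 71.6 and npas2 at 72.4. Between the 2 libraries of each vehicle group, CLOCK_11703 ranged 1.75-fold in m1/m1 vehicle (percentile 92.9) and 1.33-fold in WT (percentile 71.1). For npas2 the range was 1.69-fold in WT (percentile 88.4) and 1.04-fold in m1/m1 vehicle (percentile 13.7).

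The libraries with high and low bmal2 crossed the drug labels. With MPH, bmal2 was high in replicate 3 alone, and with valproate it was high in replicates 2 and 3 and low in replicate 1. PER3, a period gene, stood at 62.5 and 49.6 CPM in WT, 56.2 and 68.5 CPM in m1/m1 vehicle, 140.4, 179.0 and 12.3 CPM with MPH and 124.7, 19.6 and 19.7 CPM with valproate. It was thus lowest in the 3 libraries where bmal2 was highest. The other period genes, also above vehicle in the other 3 treated libraries, differed in these 3. A PER1 copy (ENSDARG00000012499) was below vehicle there (40.4 to 52.2 against 69.1 to 80.5 CPM). PER2 stood at 84.6, 95.3 and 116.5 CPM against 88.3 to 131.8 CPM with vehicle, and the other PER1 copy (ENSDARG00000056885) was above vehicle (4.93 to 6.63 against 1.27 to 3.64 CPM). The ratio of bmal2 to PER3 in CPM was 0.0838 and 0.109 in WT, 0.118 and 0.0864 in m1/m1 vehicle, 0.0242, 0.0308 and 1.18 with MPH and 0.0327, 1.05 and 0.723 with valproate. All 4 vehicle libraries lay between the low and the high drug libraries. The gene nr1d4b, of the nr1d repressor family, stood at 2.64 and 2.95 CPM in WT, 2.20 and 2.50 CPM in m1/m1 vehicle, 4.80, 8.91 and 40.4 CPM with MPH and 6.31, 50.3 and 53.3 CPM with valproate, so it was highest where bmal2 was highest. NR1D1 did not follow this division, with 50.1 to 76.6 CPM in all 6 treated libraries and 4.58 to 7.42 CPM in the 4 vehicle libraries. NR1D2 went the other way, at 290.4, 337.4 and 118.1 CPM with MPH and 259.2, 154.5 and 141.3 CPM with valproate. With vehicle it stood at 182.3 to 239.4 CPM. Nr1d4a was divided like nr1d4b, at 11.9, 12.1 and 28.6 CPM with MPH and 11.6, 46.5 and 47.8 CPM with valproate. Nr1d2a was at 288.1, 339.5 and 291.2 CPM with MPH and 325.5, 173.5 and 181.8 CPM with valproate. Its vehicle libraries stood at 43.8 to 50.9 CPM. In MPH replicate 2 bmal2 was within the range of the vehicle libraries. Pituitary markers were high in 2 of the 3 treated libraries without high bmal2 (MPH replicate 2 and valproate replicate 1) and photoreceptor markers in 1 of the 3 with high bmal2 (valproate replicate 2). Oligodendrocyte markers summed to 6052 to 7414 CPM in the 3 treated libraries with high bmal2 and to 8969 to 10150 CPM in the other 3, and radial glia markers to 2486 to 2923 and 3138 to 3795 CPM. Neuron markers summed to 6088 to 6613 CPM in the first 3 and to 5072 to 6076 CPM in the other 3. The part of these cells in the clock gene values was not tested. No group was formed from this division for a test. Still, the fits without valproate replicate 1 or without MPH replicate 3 leave that drug group with libraries from only 1 side of it. The call of bmal2 without valproate replicate 1 thus dropped its low valproate library.

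**Figure D3:**
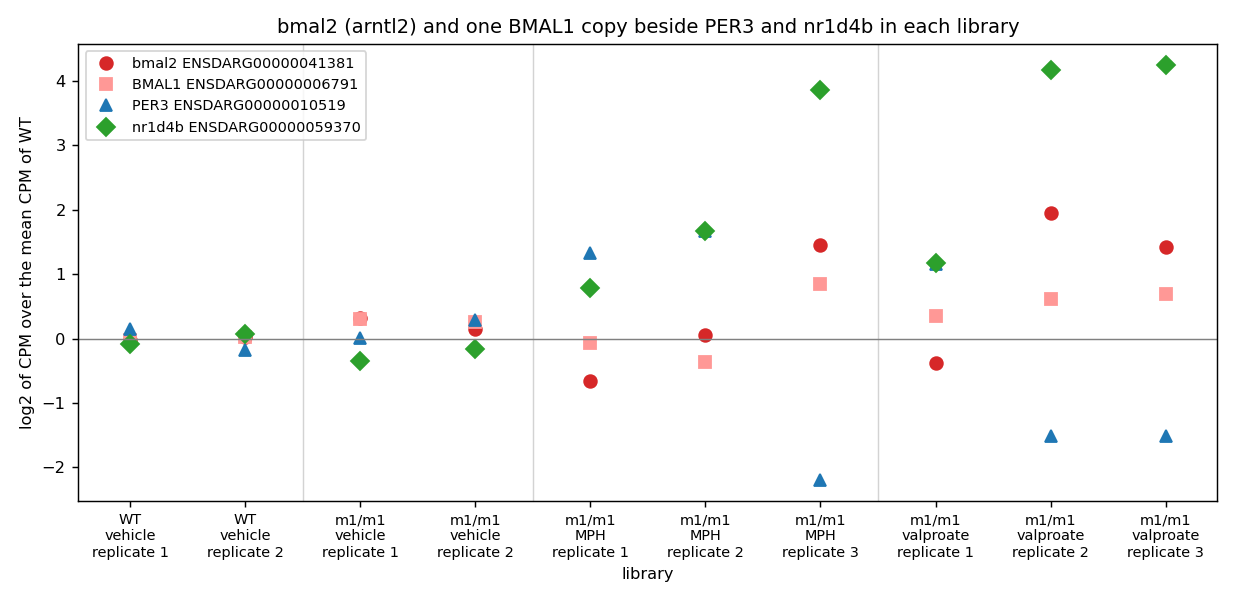
Log2 of CPM over the mean CPM of WT (vertical axis) for bmal2, BMAL1_6791, PER3 and nr1d4b in each of the 10 libraries (horizontal axis), with grey lines between groups. In MPH replicate 3 and valproate replicates 2 and 3, bmal2 and nr1d4b are high and PER3 is low, and in the other 3 treated libraries PER3 is above the vehicle libraries.

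The sum of the 6 genes divided the treated libraries in another way than bmal2. It was 106.5 and 123.8 CPM in WT, 126.1 and 132.0 CPM in m1/m1 vehicle, 106.6, 117.5 and 180.5 CPM with MPH and 167.6, 203.3 and 201.7 CPM with valproate. MPH replicate 3 was apart from the other MPH libraries and above valproate replicate 1, so the sum of MPH and valproate overlapped although 4 single genes did not. BMAL1_6791 alone gave 90.5 CPM of the sum in MPH replicate 3 and 63.8 CPM in valproate replicate 1. In m1/m1 vehicle it gave 62.1 and 59.7 CPM, so the higher sum of valproate replicate 1 came mostly from the other genes. Valproate replicate 1, where bmal2 was below all vehicle libraries, had a sum above all 4 of them.

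The genes that the activators drive, and those that act back on them, were taken from a list of 54 names of repressors and outputs of the clock. Of these, 4 had no match, and the rest gave 42 rows of the table, of which 41 were tested. With MPH against m1/m1 vehicle 3 of 41 passed edgeR's adjusted p of 0.05, all higher (0.216% of all genes passed), and the list's median log2 fold change was 0.70, against 0.15 for the 6 activators. With valproate against m1/m1 vehicle 2 of 41 passed, both higher (0.131% of all genes passed), with a median of 0.39 against 0.77 for the activators. The order of the medians of the list and the activators thus differed between the drugs, without a test of that difference. Bmal2 was high in replicate 3 alone with MPH and in replicates 2 and 3 with valproate. The drug groups thus differed in this division as well as in drug, and its part in the medians was not tested. None of the 41 passed between the genotypes (3 had an unadjusted p under 0.05 in edgeR, as did 10% of all genes) or between the drugs (1 had, beside 4.06% of all genes), where the medians were −0.07 and 0.17; DESeq2 was counted for the activators and for all genes only. Against WT, 2 passed with MPH and 1 with valproate, all higher, beside 0.194% and 0.115% of all genes, with medians of 0.60 and 0.25, and no gene of the list passed as lower in any comparison.

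NR1D1, which encodes a repressor of bmal genes, was called in each comparison of a drug with vehicle. It stood at 6.87 and 4.58 CPM in WT, 6.99 and 7.42 CPM in m1/m1 vehicle, 65.7, 70.4 and 50.1 CPM with MPH and 53.3, 76.5 and 76.6 CPM with valproate. Treated and vehicle libraries were far apart, with log2 fold changes over m1/m1 vehicle of 3.11 with MPH (standard error 0.23, adjusted p = 0.00294 in edgeR) and 3.24 with valproate (standard error 0.21, adjusted p = 0.011 in edgeR). Against WT they were 3.43 (adjusted p = 0.00296) and 3.59 (adjusted p = 0.00775). The other genes called were named after their values were seen. Nr1d2a, of the same repressor family, rose with MPH by 2.73 on the log2 scale (adjusted p = 0.00294 in edgeR) and by 2.61 against WT (adjusted p = 0.00296), and nfil3-5, of a repressor family that acts on D-box DNA, rose with MPH by 1.43 (adjusted p = 0.0489). Dbpb, of the activator family that acts on D-boxes, rose with valproate by 1.28 (adjusted p = 0.0412 in edgeR).

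The 2 highest and 2 lowest of the list in each comparison show what else moved beside the activators. A PER1 copy (ENSDARG00000056885) was second to NR1D1 with MPH against m1/m1 vehicle, at a log2 fold change of 3.09 (standard error 0.74, unadjusted p = 0.00273 in edgeR). With valproate nr1d4b was above NR1D1, at 3.94 over m1/m1 vehicle (standard error 0.88, unadjusted p = 0.00245 in edgeR) and 3.71 over WT. Nr1d4b was also among the highest with MPH against WT, at 2.69 (standard error 0.84). Lowest with MPH against m1/m1 vehicle were the cryptochrome gene cry3a at −0.37 and rorab, of the Ror activators, at −0.30, and with valproate BHLHE40, a repressor at E-boxes, at −0.85 and rorab at −0.35. Cry3a at −0.53 and HLF, an activator at D-boxes, at −0.52 were lowest with MPH against WT, and cry5 at −0.68 and BHLHE40 at −0.60 with valproate against WT. Between MPH and valproate the extremes were ciarta, a repressor of the CLOCK and BMAL complex, at 1.40 and PER3 at 1.02, and nr1d4b at −1.01 and nr1d4a at −0.998. Between the genotypes they were hlfa at 0.35 and NR1D1 at 0.34, and nr1d4a at −0.55 and tefb, another D-box activator, at −0.54. None of the genes in this paragraph other than NR1D1 passed an adjusted p of 0.05 in edgeR in the comparison named.

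The 6 genes were compared pair by pair over the 10 libraries in log2 CPM. The libraries of the 4 groups share their treatment, and each library shares 1 scaling, so these 15 values describe the libraries and do not separate the genes from the groups. The permutations shuffled libraries across the groups. How often gene pairs outside the 6 correlate above 0 was not counted. All 15 Pearson coefficients were above 0, and 13 stayed above 0 when deviations from group means were used. CLOCK_3631 and npas2 had the highest, r = 0.916 (permutation p = 0.00017, 0.00255 adjusted over the 15 pairs) and rho = 0.927 (permutation p = 0.00033, 0.00495 adjusted). It was 0.896 without the 2 libraries farthest from the median of CLOCK_3631, and 0.794 within groups. BMAL1_6791 and bmal2, the genes with the widest range with MPH, had r = 0.78 (permutation p = 0.00791, 0.0198 adjusted) and rho = 0.697 (permutation p = 0.0307, 0.0576 adjusted). It was 0.835 without MPH replicates 2 and 3, and 0.724 within groups. Bmal2 and CLOCK_11703 had r = 0.749 (permutation p = 0.0149, 0.0319 adjusted) and rho = 0.491 (permutation p = 0.157, 0.214 adjusted), with 0.676 without the 2 farthest libraries and 0.757 within groups.

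The lowest coefficients joined the same genes to CLOCK_3631. BMAL1_6791 and CLOCK_3631 had r = 0.294 (permutation p = 0.407, adjusted 0.407) and rho = 0.455 (permutation p = 0.191, adjusted 0.239), with 0.703 without the 2 farthest libraries and −0.297 within groups. Bmal2 and CLOCK_3631 had r = 0.338 (permutation p = 0.334, adjusted 0.358) and rho = 0.309 (permutation p = 0.384, adjusted 0.384), with 0.204 without the 2 farthest libraries and −0.086 within groups. The CLOCK copies had r = 0.726 over all libraries (permutation p = 0.0173, adjusted 0.0324; rho = 0.794, permutation p = 0.00901, adjusted 0.0272), 0.712 without the 2 farthest, and 0.135 within groups. The BMAL1 copies had r = 0.589 (permutation p = 0.0763, adjusted 0.114; rho = 0.6, permutation p = 0.0731, adjusted 0.122), 0.8 without MPH replicates 2 and 3, and 0.381 within groups. The 3 highest coefficients within groups were thus those of CLOCK_3631 with npas2 and of bmal2 with CLOCK_11703 and BMAL1_6791.

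**Figure D4:**
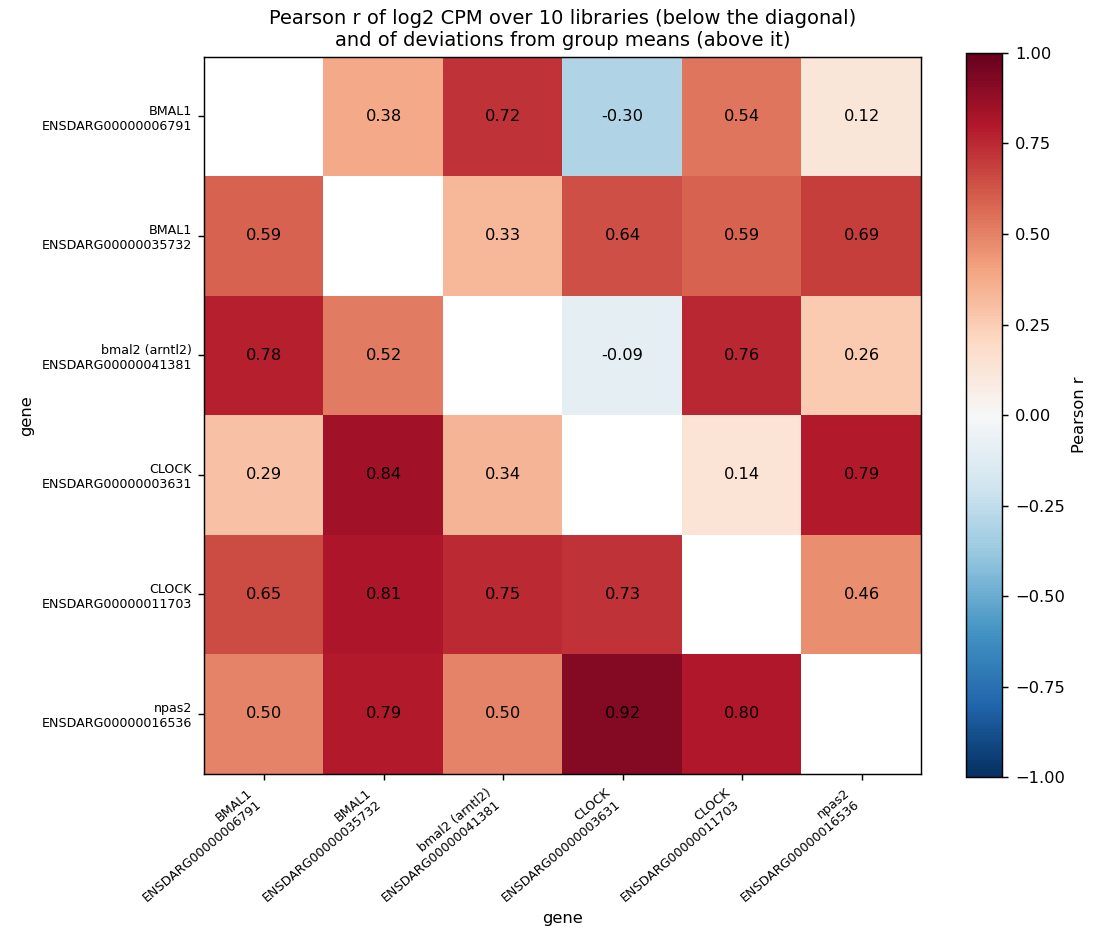
Pearson r of log2 CPM between each pair of the 6 genes (both axes) over 10 libraries, below the diagonal, and of deviations from group means, above it; colour runs from −1 (blue) to 1 (red). CLOCK_3631 and npas2 have 0.92 below and 0.79 above the diagonal, and the 2 negative values, −0.30 and −0.09, are those of CLOCK_3631 with BMAL1_6791 and with bmal2 within groups.

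The genes whose log2 CPM followed each member most closely over the 10 libraries were found among 17647 genes with a mean of at least 1 CPM, as a description. For BMAL1_6791 they were a SNAP25 copy (ENSDARG00000058117, r = 0.945), which encodes a protein of synaptic vesicle fusion and is one of the neuron markers, and the cryptochrome family gene cry4 (r = 0.935). For BMAL1_35732 they were si:ch211-239d6.4 (r = 0.953) and hnrnpa0a (r = 0.95), which encodes an RNA-binding protein. For bmal2 they were smu1b (r = 0.981), which encodes a splicing factor, and JUN (r = 0.946), an immediate early transcription factor. For CLOCK_3631 they were AGAP1 (r = 0.933), which acts on Arf GTPases, and mcm3ap (r = 0.932). The last was also closest to npas2 (r = 0.964), followed by TRIP11 (r = 0.963), which encodes a Golgi protein. For CLOCK_11703 they were NPAS4 (r = 0.944), an activity-induced transcription factor of neurons, and PRICKLE1 (r = 0.937). No other member was among the 2 closest genes of any member, and cry4 was the only gene of the clock list among them.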

How the data were processed

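The authors filtered paired-end reads with SOAPnuke, trimmed them, aligned them with STAR 2.6.1d to the zebrafish zv10 release and deposited whole read counts per gene from its GeneCounts mode, which counts reads that map to one place; the strand setting is not given in the sources used here, and reads shared by the BMAL1 or CLOCK copies may be lost from both. No normalization was applied to the deposited counts. The authors' own tests with DESeq2 were not used.

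Libraries of the 2 groups compared entered each fit alone, in edgeR 4.0.16 (R 4.3.3). Low genes were left out by filterByExpr with a minimum count of 10 and a minimum total of 15, and the fit used TMM scaling, the quasi-likelihood test and Benjamini-Hochberg adjustment over all genes tested (threshold 0.05); it was tested on simulated data. Log2 CPM for correlations had a prior count of 0.5, and p came from 100000 permutations. Alternatives were DESeq2 1.42.0, its size factors in edgeR, no filter beyond 1 count, all 10 libraries in one fit, the replicate number as a block, and leaving out each library. Descriptions used Python 3.11.15, pandas 2.3.3, scipy 1.17.1 and matplotlib 3.10.9.

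Symbols were found for 26433 of 32266 gene IDs. The members, the clock list and the markers were chosen with earlier results of these data known. Named by rule were all 6 members, the 2 highest and 2 lowest genes of the clock list in each comparison, and the 2 genes most like each member. The other genes of the clock list that are named were chosen outside this rule. So was the setting of PER3 and nr1d4b beside bmal2. Gene lengths were not used, so genes are not ranked by level; the ratio of bmal2 to PER3 and the sum of the members only compare libraries. A planned search for motifs in promoters was not run, since promoter sequence was not used here. Intervals of counts cover counting error only.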

Additional observations from a re-analysis of the deposited data

How the results depend on the processing

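The 36 log2 fold changes of the 6 genes kept their direction under DESeq2, its size factors in edgeR, no filter on low counts and all 10 libraries in one fit; what changed was the number of calls. Over all genes, DESeq2 called 281 between the genotypes, 495 with MPH and 1071 with valproate against m1/m1 vehicle, 41 between the drugs, and 511 with MPH and 979 with valproate against WT. It called 3 of the 6 genes with valproate against m1/m1 vehicle and 3 against WT. Without a filter the counts over all genes were 272, 219, 267, 1, 252 and 228 in the same order, with 1 of the 6 genes called for valproate against WT. With all 10 libraries in one fit they were 4 between the genotypes, 143 for MPH against m1/m1 vehicle, 126 for MPH against WT and 61 for valproate against WT, and with the size factors of DESeq2 24 for MPH against WT. The cause of these shifts was not tested.

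Deviations of libraries with the same replicate number from their group means correlated at −0.159 to 0.104 (13 pairs of libraries) and those of different numbers at −0.244 to 0.209. In a group of 2 libraries the deviations mirror each other, so values with a vehicle library cannot show whether the numbers pair the libraries. Between MPH and valproate libraries r was 0.104, −0.159 and 0.061 for the same number and −0.244 to 0.209 for different numbers. Whether the numbers pair the libraries was not tested. With the number as a replicate block, 120 genes were called between the genotypes, 2689 with MPH and 135 with valproate against m1/m1 vehicle, 2 between the drugs, and 676 with MPH and 117 with valproate against WT. In the block fit 1 of the 6 genes was called with MPH against m1/m1 vehicle, BMAL1_6791 at −0.50 (adjusted p = 0.0277 in edgeR). In the same fit bmal2 was at −0.53 there, and against WT BMAL1_6791 was at −0.23, bmal2 at −0.31 and CLOCK_11703 at −0.15, each of opposite sign to the fit without the block. Vehicle groups have no replicate 3, so the block term for that number fitted a drug library alone and took it out of contrasts with vehicle. Leaving out MPH replicate 3 gave −0.50 for both BMAL1_6791 and bmal2 against m1/m1 vehicle. Against WT it gave −0.21 for BMAL1_6791, −0.26 for bmal2 and −0.13 for CLOCK_11703.

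Leaving out 1 library at a time, genes called ranged from 31 to 494 between the genotypes, 1 to 731 with MPH and 0 to 712 with valproate against m1/m1 vehicle, 0 to 1 between the drugs, and 5 to 367 with MPH and 12 to 57 with valproate against WT. The highest numbers came without WT replicate 1, MPH replicate 3 or valproate replicate 1. Of the 6 genes, 0 to 3 were called with valproate against m1/m1 vehicle and 0 elsewhere. Directions changed in 3 comparisons. For the genotypes, the log2 fold change ran from −0.18 to 0.15 for CLOCK_3631, −0.57 to 0.21 for CLOCK_11703 and −0.30 to 0.45 for npas2. For MPH against m1/m1 vehicle it ran from −0.50 to 0.19 for BMAL1_6791, −0.50 to 0.69 for bmal2, −0.0175 to 0.15 for CLOCK_3631, −0.10 to 0.71 for CLOCK_11703 and −0.25 to 0.17 for npas2. For MPH against WT it ran from −0.21 to 0.46 for BMAL1_6791, −0.26 to 0.91 for bmal2, −0.12 to 0.21 for CLOCK_3631, −0.13 to 0.33 for CLOCK_11703 and −0.38 to 0.37 for npas2. With an arm left at 1 library, that library is assumed to vary like the other group.

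Of the correlations, those of CLOCK_3631 with BMAL1_6791 and bmal2 turned to −0.297 and −0.086 within groups. Each group held 2 or 3 libraries, and the lowest count of a member in any of them was 77.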

Other observations

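The 7 cryptochrome rows of the clock list, chosen after their values were seen, were also divided among the treated libraries. Cry3a stood at 80.9, 105.7 and 330.4 CPM with MPH and at 129.6, 308.9 and 301.2 CPM with valproate, and at 187.1 to 278.4 CPM in the 4 vehicle libraries. It was thus below all vehicle libraries in the 3 treated libraries where bmal2 was low or near vehicle, and above them in the 3 where bmal2 was high. Cry4 stood at 45.2, 36.2 and 79.1 CPM with MPH and at 47.4, 72.8 and 69.8 CPM with valproate, and at 45.4 to 53.7 CPM in the vehicle libraries. Cry3b differed in that no treated library was below all vehicle libraries, with 197.2, 216.4 and 372.4 CPM with MPH and 235.8, 341.0 and 358.9 CPM with valproate against 118.1 to 195.7 CPM with vehicle. The other 4 rows went the other way. The CRY1 copy ENSDARG00000045768 stood at 409.4, 399.4 and 116.6 CPM with MPH and 383.2, 136.8 and 154.2 CPM with valproate against 190.1 to 220.0 CPM with vehicle, and the copy ENSDARG00000011583 at 88.1, 102.2 and 22.8 CPM and 69.9, 15.7 and 20.0 CPM against 26.2 to 41.8 CPM. Cry5 stood at 11.1, 12.1 and 4.57 CPM with MPH and 8.93, 3.06 and 3.37 CPM with valproate against 5.58 to 8.55 CPM with vehicle. CRY2 was at 97.4, 108.8 and 20.4 CPM with MPH and 63.9, 29.8 and 28.6 CPM with valproate against 29.7 to 44.9 CPM, so that valproate replicate 2 was within its vehicle range. BHLHE40, a repressor at E-boxes, was divided like these 4, with 429.8, 463.2 and 120.8 CPM with MPH and 407.8, 107.8 and 133.8 CPM with valproate against 325.1 to 404.7 CPM with vehicle.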
